A study of Mus musculus with 8 samples.

Results

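The genes described here encode the proteins of the cytosolic ribosome: the Rpl and Rplp genes of the large subunit and the Rps genes and Rpsa of the small subunit. They were chosen by symbol (Rpl or Rps and a number with at most the letter a, x or y, the acidic P proteins Rplp0, Rplp1 and Rplp2, and Rpsa) and by a level of at least 1 FPKM in at least 2 of the 8 libraries. FPKM corrects the number of fragments for the length of a transcript and the size of the library, and is summed here over the RefSeq transcripts of a gene. Of 76 matching symbols, 70 met the rule, 43 of the large and 27 of the small subunit, among 11244 genes at that level in all. Of these, 68 were among the 10278 genes tested. The other 2, Rpl26 and Rpl30, were set aside because they are listed at 0 in 3 and in 5 libraries. Rps27 has 2 transcript rows, both listed at 0 in every library. A further 5 symbols, Rpl13a, Rpl36a, Rpl39 and Rps25 among them, have no RefSeq transcript row in the table used.

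RNA came from 1 line of male mouse embryonic stem cells, Bruce 4, of the inbred strain C57BL/6J, wild type in every group. The cells had been kept for 2 weeks on dishes coated with gelatin or with laminin-511 (LN511), the laminin isoform also used to hold stem cells without feeder cells. On each coating they were grown in a medium named Std, whose composition the labels do not give, or in 2i, which holds inhibitors of MEK and of GSK3. The groups are therefore gelatin Std, gelatin 2i, LN511 Std and LN511 2i, with 2 biological replicates each and 8 libraries in all. Because all come from 1 line, p-values measure the spread between these cultures and not between lines.

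The cytosolic ribosome is built from ribosomal RNA and one copy of most of these proteins, so cells make the subunits' proteins in near balance, in part by control of translation. The messenger RNAs of ribosomal proteins typically begin with a 5′ terminal oligopyrimidine (TOP) tract, a C followed by a run of C or T, through which the mTOR pathway and the RNA-binding protein Larp1 set their translation. Myc and Mycn are known as activators of ribosome production, and fast-dividing stem cells depend on it.

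The start sites show how far this feature can be read from the annotation. RefSeq (GRCm38.p6, whose coordinates are those of mm10) gave start-site sequence for 51 of the 70 genes. The tract searched was a C at the first transcribed base followed by at least 4 bases that are each C or T, on the strand of the gene. It was present at an annotated start of 12 of the 51 genes (23.5%), against 2.92% of 8195 other tested genes and 3.01% of all 27025 genes of the table. When the C could lie up to 10 bases to either side of the start, the shares were 58.8% (30 genes), 36.8% and 34.4%. The following windows hold 10 bases before the annotated start and 15 from it on, in the gene's direction, with the pyrimidine run in capitals. Rps6, Rps18, Rplp2, Rpl35, Rpl38 and Rps15a are shown as examples of the 12 genes with the tract at an annotated start, and the others are not shown.
Rps6, chr4:86857353-86857377, minus strand: gaagtcgggCCTCTTTTTCgtgacg
Rps18, chr17:33955651-33955675, minus strand: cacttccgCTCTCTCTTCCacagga
Rplp2, chr7:141447641-141447665, plus strand: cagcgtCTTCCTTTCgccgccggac
Rpl35, chr2:39005117-39005141, minus strand: ccgCCCTTTCCTCTTTCTCTCgaac
Rpl38, chr11:114668570-114668594, plus strand: aagcctcgttCTTTCCCCgttctct
Rps15a, chr7:118116133-118116157, minus strand: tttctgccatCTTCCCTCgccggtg
Rps23, which passed the test between the media on LN511 only, had its run a few bases after the annotated start. Rplp0, which passed on both coatings, and Rps28, which passed between the media on gelatin only, had no such run in the window.
Rps23, chr13:90923112-90923136, plus strand: cggctgggcggggCTTCCCgcaatg
Rplp0, chr5:115559457-115559481, plus strand: cgggtttcgaggaccgcctggttct
Rps28, chr17:33824548-33824572, minus strand: cgcgtgcggtctcgcgagagcgaaa
These are matches of letters at annotated starts, and the starts used by these cells were not measured.

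The ribosomal protein genes were among the most abundant messages in every library. Their median level over the 8 libraries was 1652 FPKM (68 genes), against 8.26 FPKM for all 10278 tested genes. Of 83 tested genes that averaged 1000 FPKM or more, 54 (65.1%) were ribosomal protein genes. Together the tested members made up 24.3% to 26.1% of the summed FPKM of tested genes in each library. The levels of the single genes nevertheless spread 48.6-fold, from Rps15a to Rplp1.

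The highest means belonged to Rplp1 (4482 FPKM, an acidic protein of the stalk that recruits translation factors), Rps2 (3882), Rps12 (3347), Rps18 (2783), Rplp2 (2751, the partner of Rplp1 in the stalk) and Rpl41 (2749, the smallest of these proteins). The lowest belonged to Rps15a (92.2 FPKM), Rpl30 (96.2), Rpl26 (137), Rpl22 (217), Rpl34 (311) and Rpl21 (455). The means of Rpl26 and Rpl30 include the libraries listed at 0 and are not levels of expression. The median was 1553 FPKM over 41 large subunit genes and 2006 FPKM over 27 small subunit genes. Levels showed little relation to the length of the coding sequence, which ran from 75 to 1257 bases (Pearson's r = -0.056 and Spearman's rho = -0.18 over 68 genes of the same libraries, as a description).

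**Figure D1:**
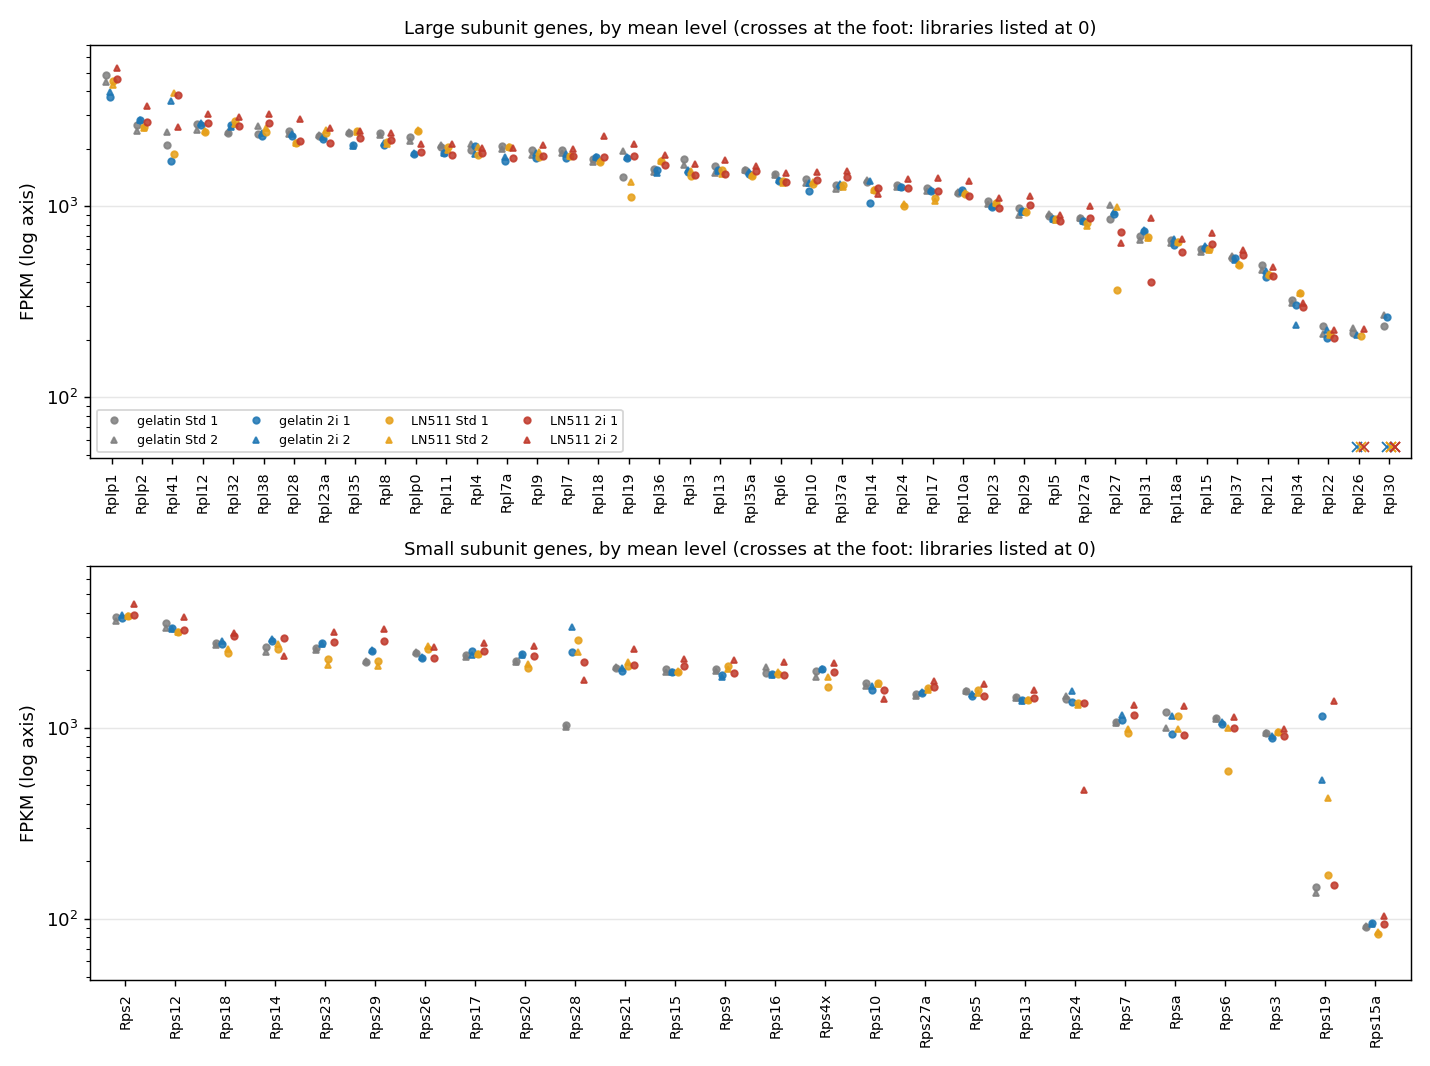
Level of the cytosolic ribosomal protein genes in FPKM on a log axis, ordered by mean within the large subunit (upper panel) and the small subunit (lower panel). Each point is 1 library, coloured by group, with circles for replicate 1 and triangles for replicate 2, and crosses at the foot mark libraries listed at 0, which occur only for Rpl26 and Rpl30. Most genes form a tight column of points, while Rps19, Rps28, Rps24, Rpl27, Rpl41 and Rpl31 spread at least 2-fold.

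The other genes of the panel named for their roles lay between these ends. Rplp0, which anchors the stalk to the ribosome, had a mean of 2160 FPKM. Rps3 (932 FPKM), at the messenger RNA entry channel, and Rpl5 (872) were the least variable of the panel, with a largest over smallest library of 1.11 and 1.08. Rpl5 and Rpl11 (1991 FPKM) bind the 5S ribosomal RNA and can also bind Mdm2. Rpl3 (1569 FPKM), near the peptidyl transferase centre, Rpl10 (1344), which joins late in large subunit assembly, and Rpl38 (2570), known from mouse skeletal patterning, varied by 1.22, 1.27 and 1.3 times. Rpsa is also known as the laminin receptor precursor. It averaged 1079 FPKM and read 1211 and 999 FPKM (gelatin Std), 923 and 1147 (gelatin 2i), 1146 and 988 (LN511 Std), and 918 and 1300 (LN511 2i). Its highest and lowest values were both in LN511 2i, the groups overlapped, and it passed the test in no comparison.

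Most members varied less between libraries than other abundant genes, which were not matched to them in level. Of the 83 tested genes that averaged 1000 FPKM or more, 54 were members. The largest value over the 8 libraries divided by the smallest had a median of 1.24 for the 68 ribosomal protein genes and 1.46 for the 660 other tested genes that averaged 100 FPKM or more. That ratio was under 1.5 for 59 ribosomal protein genes (86.8%) and for 54.8% of the others. It was 1.5 or more for 9: Rps19 (10.2), Rps28 (3.34), Rps24 (3.31), Rpl27 (2.78), Rpl41 (2.25), Rpl31 (2.15), Rps6 (1.92), Rpl19 (1.90) and Rps29 (1.54). In Rps28, Rps29 and Rpl19 the spread lay mainly between groups, and in the other 6 it lay between replicates of 1 or more groups.

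One library stood above the rest for most of the family. LN511 2i replicate 2 had the highest value of the 8 for 51 of 68 ribosomal protein genes (75%) and for 38.2% of the 660 other abundant genes. The median member was 0.17 above its own mean there on the log2(FPKM + 1) scale, and between -0.04 and 0.01 in the other 7 libraries. The other abundant genes were also high in that library, by a median of 0.12, and the median of all tested genes was 0.02 above its mean. Replicate 2 was above replicate 1 for 61 of the 68 genes in LN511 2i, against 21, 47 and 33 in gelatin Std, gelatin 2i and LN511 Std. Summed FPKM over the 10278 tested genes was 497959 in that library and 451237 to 468965 in the other 7. The numbers of members that passed and the median differences that use that library are also given without it. Counts of members above 0, without overlap or at an unadjusted p are given with all 8 libraries only. Rescaling the libraries moved some of the results. The median log2 difference of the members for 2i against Std on LN511 was 0.10 as deposited and 0.035 to 0.13 under 5 rescalings, lowest when centred on the median member and highest with the median ratio to the mean library. That of LN511 against gelatin in 2i was 0.09 as deposited, 0.011 to 0.028 under 4 of the rescalings and 0.083 with the median ratio.

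**Figure D2:**
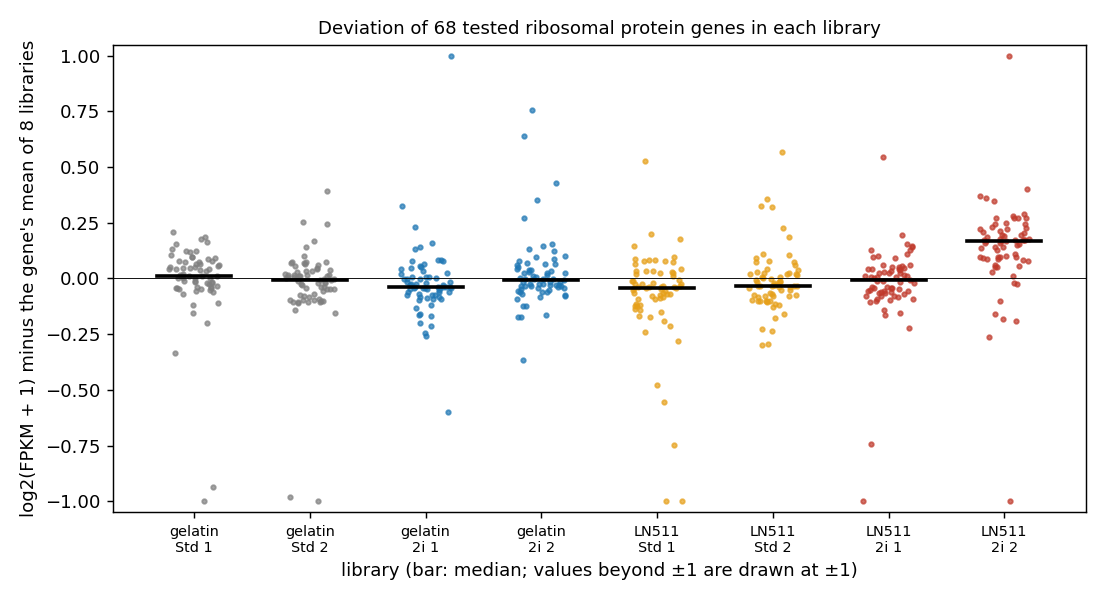
Deviation of each of the 68 tested ribosomal protein genes from its own mean over 8 libraries, in log2(FPKM + 1), with 1 point per gene and a bar at the median of each library. Values beyond 1 in either direction are drawn at the edge. The median is 0.17 in LN511 2i replicate 2 and between -0.04 and 0.01 in the other 7 libraries.

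Summed over all 70 genes, the level was 115767 ± 1113 FPKM in gelatin Std, 116331 ± 2844 in gelatin 2i, 114242 ± 2233 in LN511 Std and 123759 ± 8877 in LN511 2i (mean ± SD, n = 2 each). The LN511 2i libraries read 117482 and 130036, so the higher mean of that group came with the widest gap between replicates. The first 3 groups lay within their replicate spread of one another. In bulk RNA, such sums cannot tell apart a change in the cells present from a change per cell. The 27 small subunit genes alone summed to 49955 and 48781 FPKM (gelatin Std), 52037 and 53129 (gelatin 2i), 49702 and 50154 (LN511 Std), and 51983 and 57109 (LN511 2i). All 4 sums in 2i were thus above all 4 in Std. Without Rps19 and Rps28 the sums were 48768 and 47637, 48385 and 49232, 46655 and 47227, and 49634 and 53939 in the same order, and the media overlapped.

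The change of medium on gelatin asks which genes differ between 2i and Std on the usual coating. As the composition of Std is not given, the inhibitors cannot be told apart from other differences between the media. Here 3 of 68 ribosomal protein genes passed (limma, Benjamini-Hochberg adjusted p under 0.05), 1 higher and 2 lower in 2i, or 4.41%, against 15.4% of all tested genes (8.2% higher and 7.2% lower). Rps28 rose, and Rplp0 and Rpl35 fell. The median log2 difference was -0.03 over the members, 0.00 over all tested genes and -0.03 over the 660 other abundant genes. Of the 68, 64 lay within 0.25 of 0 on the log2 scale. Both 2i libraries were above both Std libraries for 17 members (25%, against 29.9% of all tested genes) and below them for 27 (39.7%, against 29.3%).

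Rps28 encodes a small protein of the 40S head at the messenger RNA exit, and its gene lies at chr17:33823036-33824562 on the minus strand. It read 1040 and 1008 FPKM (gelatin Std), 2495 and 3362 (gelatin 2i), 2877 and 2500 (LN511 Std), and 2199 and 1786 (LN511 2i). The gelatin Std libraries were the lowest, well below the other 6, and no other group overlapped them. On gelatin it was 2.86-fold higher in 2i, a log2 difference of 1.50 ± 0.16 (SE, n = 2 per group, limma adjusted p = 0.00224), and it stayed past the threshold in every alternative of the fit in which it could be tested. In Std it was 2.63-fold higher on LN511 (log2 1.39 ± 0.16, limma adjusted p = 0.0135). On LN511 the log2 difference of 2i from Std was -0.44 ± 0.16 (limma adjusted p = 0.11), and in 2i that of LN511 from gelatin was -0.55 ± 0.16 (limma adjusted p = 0.268). The interaction of coating and medium was -1.94 ± 0.23 (limma adjusted p = 0.0422). With any 1 of the 8 libraries left out the interaction did not pass (limma adjusted p = 0.0627 to 0.195). The call of LN511 against gelatin in Std was likewise lost without gelatin Std replicate 1 (limma adjusted p = 0.0785) or replicate 2 (0.0861) and without LN511 Std replicate 1 (0.0972) or replicate 2 (0.0706). Ndufa7, a gene of respiratory complex I that starts at chr17:33824572 on the opposite strand, read 310 to 400 FPKM and was highest in gelatin Std replicate 1. Its gelatin Std libraries were not the low ones.

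Rplp0 passed in both comparisons of medium. It read 2295 and 2200 FPKM (gelatin Std), 1871 and 1902 (gelatin 2i), 2468 and 2515 (LN511 Std), and 1916 and 2114 (LN511 2i). All 4 libraries in 2i were below all 4 in Std. The log2 difference was -0.25 ± 0.06 on gelatin (SE, limma adjusted p = 0.0365) and -0.31 ± 0.06 on LN511 (limma adjusted p = 0.0168). Rpl35, at the exit tunnel of the large subunit, read 2413 and 2430 FPKM (gelatin Std), 2082 and 2061 (gelatin 2i), 2462 and 2449 (LN511 Std), and 2261 and 2485 (LN511 2i). It was lowest in gelatin 2i, while the media overlapped on LN511. Its log2 difference on gelatin was -0.23 ± 0.06 (limma adjusted p = 0.041) and on LN511 -0.05 ± 0.06 (limma adjusted p = 0.586). On gelatin, both Rplp0 and Rpl35 lost their call without any 1 of the 4 gelatin and 2 LN511 Std libraries, all groups being in 1 fit. The count of 3 became 1, Rps28 alone, without gelatin Std replicate 1 or 2 or LN511 Std replicate 1 or 2. It became 8 (11.8%, against 14.7% or 14.8% of all tested genes), 3 higher and 5 lower, without LN511 2i replicate 1 or without replicate 2, where Rps19 and Rps29 joined Rps28 above 0 and Rplp1, Rpl7a and Rpl8 joined Rplp0 and Rpl35 below. With quantile normalization 1 was higher (1.47%, against 7.73% of all tested genes) and 4 were lower (5.88%, against 7.79%). With 4 other scalings of the libraries 1 was higher (1.47%, against 7.64% to 8.13%) and 5 were lower (7.35%, against 7.03% to 7.65%).

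**Figure D3:**
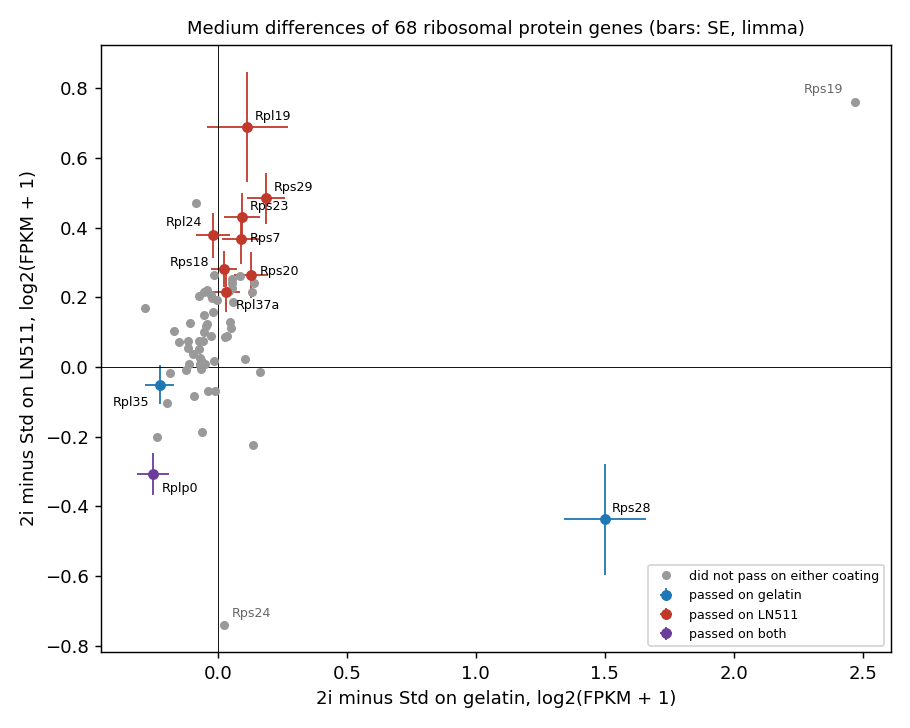
Difference of 2i from Std on gelatin (horizontal axis) and on LN511 (vertical axis) for the 68 tested ribosomal protein genes, in log2(FPKM + 1), with 1 point per gene and standard errors from limma for those that passed. The 8 genes that passed on LN511 only lie at 0.21 to 0.69 on the vertical axis and at -0.02 to 0.19 on the horizontal axis, Rplp0 is below 0 on both, and Rps28 stands at 1.50 on gelatin and -0.44 on LN511.

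On LN511, 9 of 68 members passed between the media (13.2%), against 18.5% of all tested genes. They split as 8 higher in 2i (11.8% of members, against 8.58% of all tested genes) and 1 lower (1.47%, against 9.95%). Rps29, Rps23, Rpl24, Rps7, Rps18, Rpl19, Rps20 and Rpl37a rose, and Rplp0 fell. The median log2 difference was 0.10 over the members, -0.04 over all tested genes and 0.00 over the 660 other abundant genes, and 53 of 68 members were above 0. Rps genes had a median of 0.12 and Rpl genes of 0.09. For 32 members both 2i libraries were above both Std libraries (47.1%, against 27.7% of all tested genes), and for 5 they were below (7.35%, against 32%).

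Rps29, a zinc-binding protein of the 40S head, read 2218 and 2243 FPKM (gelatin Std), 2535 and 2546 (gelatin 2i), 2232 and 2115 (LN511 Std), and 2831 and 3266 (LN511 2i). Both coatings had every library in 2i above every library in Std. It was 1.40-fold higher in 2i on LN511 (log2 0.48 ± 0.07, limma adjusted p = 0.00675), and its log2 difference on gelatin was 0.19 ± 0.07 (limma adjusted p = 0.141). Rps23, at the decoding centre, read 2612 and 2538 FPKM (gelatin Std), 2760 and 2736 (gelatin 2i), 2283 and 2127 (LN511 Std), and 2798 and 3151 (LN511 2i). It was lowest in LN511 Std and again had all 4 libraries in 2i above all 4 in Std. Its log2 difference on LN511 was 0.43 ± 0.07 (limma adjusted p = 0.00846), and on gelatin it was 0.09 ± 0.07 (limma adjusted p = 0.426).

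Rpl24, which forms a bridge between the subunits, read 1294 and 1260 FPKM (gelatin Std), 1255 and 1265 (gelatin 2i), 997 and 1028 (LN511 Std), and 1245 and 1392 (LN511 2i). Only LN511 Std stood apart, below the other 3 groups, whose libraries overlapped. Its log2 difference of 2i from Std was 0.38 ± 0.06 on LN511 (limma adjusted p = 0.0104). Rpl19, another bridge protein, read 1428 and 1942 FPKM (gelatin Std), 1795 and 1811 (gelatin 2i), 1116 and 1333 (LN511 Std), and 1826 and 2119 (LN511 2i). It too was lowest in LN511 Std, with a wide gap between the gelatin Std replicates. The log2 difference on LN511 was 0.69 ± 0.16 (limma adjusted p = 0.0276).

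The other 4 that rose on LN511 moved by less. Rps7, which is needed for small subunit processing, had a log2 difference of 0.37 (limma adjusted p = 0.0168). Rps18, of the 40S head, had 0.28 (0.0135), Rps20, also of the head, 0.26 (0.0377), and Rpl37a, a zinc-binding protein of the large subunit, 0.21 (0.04), with the limma adjusted p in parentheses. In each of these 4 both LN511 2i libraries were above both LN511 Std libraries.

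**Figure D4:**
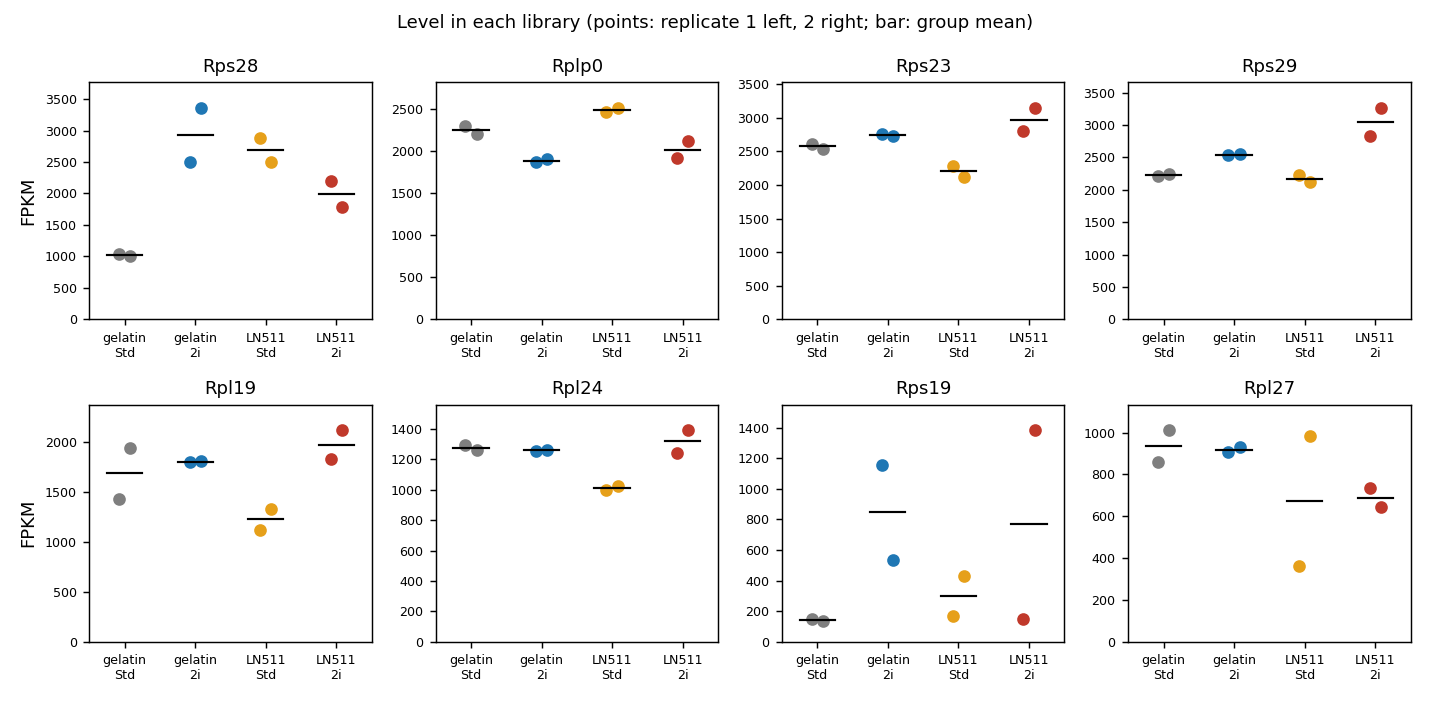
Level of 8 ribosomal protein genes in each library, in FPKM, with the axis starting at 0. Points are libraries, replicate 1 left and 2 right, and the bar is the mean of a group. Rps28 is lowest in gelatin Std, Rplp0 is lower in 2i on both coatings, Rps23, Rpl19 and Rpl24 are lowest in LN511 Std, Rps29 is lower in Std on both coatings, Rps19 differs more than 2-fold between replicates of 3 groups, and Rpl27 does so in LN511 Std.

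These counts on LN511 depended on which libraries were in the fit. Without LN511 2i replicate 2, the library high for most of the family, 5 were higher (7.35%, against 4.92% of all tested genes) and 4 lower (5.88%, against 6.86%), with Rpl23a, Rpl31 and Rps26 beside Rplp0, and the median member difference was 0.03 in place of 0.10 on the log2 scale. Without LN511 2i replicate 1 the counts were 27 higher (39.7%, against 5.75% of all tested genes) and 3 lower (4.41%, against 7.07%), and the median was 0.19. Rpl31 passed in opposite directions in these fits: its log2 difference was 0.33 without replicate 1 (limma adjusted p = 0.0166), -0.78 without replicate 2 (limma adjusted p = 0.00175), and -0.22 with both (limma adjusted p = 0.667). Without LN511 Std replicate 1 only Rps23 and Rps29 were higher (2.94%, against 4.4% of all tested genes) and none was lower (against 4%). Without LN511 Std replicate 2 none of the 9 passed, and 2 others, Rpl27 and Rps6, were higher, both low in the replicate that remained (2.94%, against 4.54% of all tested genes higher and 3.83% lower). With gelatin 2i replicate 1 or 2 left out, 5 were higher (7.35%, against 7.37% or 7.35%) and 1 lower (1.47%, against 8.02% or 8.03%). In a fit of only the 4 LN511 libraries none passed, against 9.36% of all tested genes. The limma adjusted p of the 9 then lay between 0.0584 and 0.151. Rescaling each library by the median ratio to the mean library gave 16 higher (23.5%, against 9.35% of all tested genes) and 1 lower (1.47%, against 9.33%), and quantile normalization gave 11 higher (16.2%, against 9.08%) and 3 lower (4.41%, against 9.44%).

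Across both coatings, 9 of the 68 genes had all 4 libraries in 2i above all 4 in Std (13.2%, and 13.2% of all tested genes). Rpl15, Rpl18, Rplp2, Rps15a, Rps20, Rps23, Rps29 and Rps7 were among them. Rpl34, Rplp0 and Rps10 (4.41%, against 14.5% of all tested genes) had all 4 below. The share that was higher is that of all genes, and the share that was lower is under it.

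Between the coatings, which compare laminin with the usual gelatin, few members passed. In Std, 1 member passed, Rps28, which was higher on LN511 (1.47%, against 1.54% of all tested genes higher, 0.564% lower and 2.1% in either direction), and the median log2 difference of LN511 from gelatin was -0.04 over the members, 0.05 over all tested genes and 0.04 over the 660 other abundant genes. In Std, 15 members had both LN511 libraries above both gelatin libraries (22.1%, against 28.7% of all tested genes) and 28 had them below (41.2%, against 20.7%). The count of 1 became 0 without gelatin Std replicate 1 or 2 or LN511 Std replicate 1. Without LN511 Std replicate 2 it was 1, with Rpl27 lower in place of Rps28, and it was 2 without either LN511 2i replicate, with Rpl24 lower. Other scalings of the libraries gave 1 higher (1.47%, against 1.18% to 1.41% of all tested genes). They gave 1 to 3 lower (1.47% to 4.41%, against 0.623% to 0.759%). In 2i, none passed in limma, against 0.0195% of all tested genes, with 12 higher (17.6%, against 6.51% of all tested genes) and 1 lower (1.47%, against 5.44%) at an unadjusted p under 0.05. Of the 68, 26 had both LN511 libraries above both gelatin libraries in 2i (38.2%, against 22.2% of all tested genes) and 4 had them below (5.88%, against 20.7%). Without LN511 2i replicate 1, Rps24 passed as lower, and without replicate 2, Rpl31, each low in the replicate that remained. The median was 0.09 over the members, 0.00 over all tested genes and 0.10 over the 660 other abundant genes, and over the members it was 0.00 without LN511 2i replicate 2 and 0.19 without replicate 1. For the interaction, the 1 member that passed was Rps28, with a negative sign (1.47%, against 0.136% of all tested genes with that sign, 0.0486% with the other and 0.185% with either), and the median over the members was 0.14, against -0.04 over all tested genes and 0.05 over the 660 other abundant genes. Without LN511 2i replicate 2 the median over the members was 0.05, and Rpl31 passed in place of Rps28 (log2 -0.91, limma adjusted p = 0.0359). Without replicate 1 it was Rps24 that passed (log2 -1.52, limma adjusted p = 0.039).

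Over both media, Rpl36, Rps21 and Rps27a had all 4 LN511 libraries above all 4 on gelatin (4.41%, against 2.7% of all tested genes), and Rps24 had them all below (1.47%, against 1.76%). Rps27a is made as a fusion with ubiquitin and read 1509 and 1470 FPKM (gelatin Std), 1515 and 1535 (gelatin 2i), 1607 and 1570 (LN511 Std), and 1628 and 1754 (LN511 2i). The step between the coatings was small, and no comparison of Rps27a passed.

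Several members were low or high in a single library, so that a mean of 2 does not describe their group. Rps19, a gene of 40S maturation that is mutated in Diamond-Blackfan anaemia, read 147 and 136 FPKM (gelatin Std), 1158 and 535 (gelatin 2i), 170 and 427 (LN511 Std), and 150 and 1385 (LN511 2i). The LN511 2i pair alone spanned nearly the whole range. Its log2 difference of 2i from Std on gelatin, 2.47 ± 0.99 (limma adjusted p = 0.15), was the largest of the 68 in size and did not pass. On LN511 that difference was 0.76 with all libraries and -0.84 without LN511 2i replicate 2. The other Rps19 value that turned was LN511 against gelatin in 2i, -0.78 with all libraries and 0.81 without LN511 2i replicate 1.

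Rpl27, of the large subunit, read 859 and 1012 FPKM (gelatin Std), 906 and 930 (gelatin 2i), 364 and 986 (LN511 Std), and 737 and 643 (LN511 2i). Rps6, the substrate of S6 kinase downstream of mTOR, read 1131 and 1116 FPKM (gelatin Std), 1051 and 1067 (gelatin 2i), 592 and 998 (LN511 Std), and 1000 and 1137 (LN511 2i). For both genes LN511 Std replicate 1 was the lowest of the 8. Its partner replicate was not low for Rpl27, while for Rps6 the partner, at 998 FPKM, was the next lowest. Rpl31 read 402 and 866 FPKM in LN511 2i, its lowest and its highest library, and 663 to 750 in the other 6. Rpl41 ranged from 1731 to 3892 FPKM, with both replicates of gelatin 2i (1731 and 3538) and of LN511 Std (1883 and 3892) far apart.

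Rps24, also a gene of small subunit maturation, read 1414 and 1458 FPKM (gelatin Std), 1365 and 1564 (gelatin 2i), 1352 and 1320 (LN511 Std), and 1353 and 473 (LN511 2i). A single library, LN511 2i replicate 2, was low, in the library where most of the family was highest. Its log2 difference of 2i from Std on LN511 was -0.74 ± 0.42 (limma adjusted p = 0.277), and 0.02 without that library.

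The transcripts of Rps24 differed between the media more than their sum did. NM_011297 holds a short exon that NM_207634 skips. That exon begins with the stop codon, shown in capitals, so that its protein has 130 residues. Skipping it moves the reading frame's end to the next exon, and the protein has 133 residues. Both stretches are shown because they are the whole coding difference.
NM_011297, alternative exon, chr14:24495430-24495449, plus strand: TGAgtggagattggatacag
NM_207634, last exon up to its stop, chr14:24495775-24495786, plus strand: ccaaaggagTAG
The share of Rps24 FPKM in NM_011297 was 15.6% and 18.7% in gelatin Std, 49.7% and 49.9% in gelatin 2i, 0% in both LN511 Std libraries, and 39.0% and 42.5% in LN511 2i. All 4 libraries in 2i were above all 4 in Std. In FPKM, NM_011297 was listed at 0 in both LN511 Std libraries, where NM_207634 read 1352 and 1320, and a listed 0 can be a failed estimate. This pattern was chosen after its values were seen and was not tested.

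**Figure D5:**
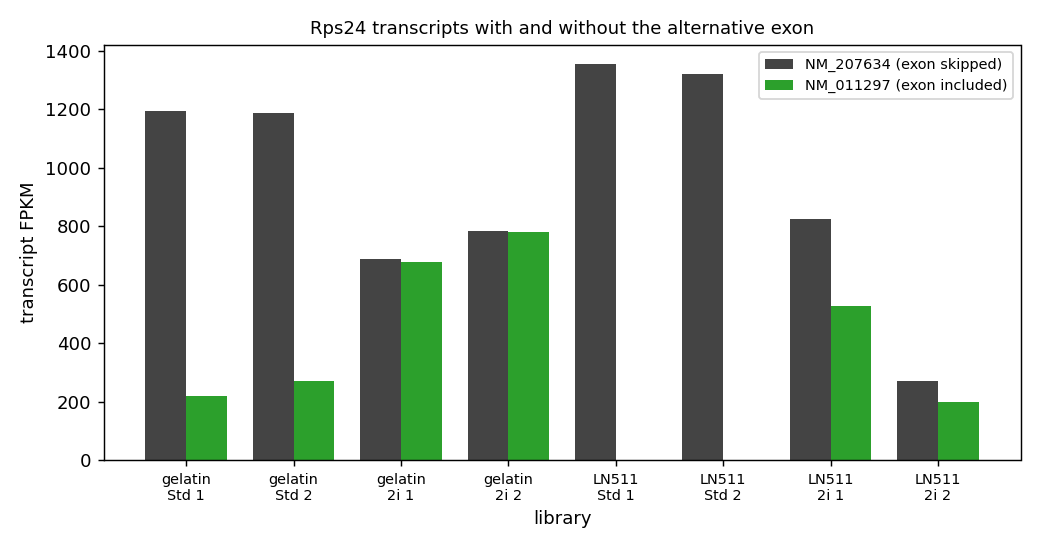
FPKM of the 2 Rps24 transcripts in each library, NM_207634 without and NM_011297 with the alternative exon. NM_011297 makes up 39.0% to 49.9% of the sum in the 4 libraries in 2i and at most 18.7% in the 4 in Std, where both LN511 libraries list it at 0.

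In the other members with more than 1 transcript above 0, no such order by medium was seen. In Rpl35a, NM_001130485 held 71.0% to 77% of the sum in all 8 libraries. In Rpl38, NM_001048058 held 66.5% to 71.9%. The minor transcripts of Rpl22 were listed at 0 in 2 libraries, and those of Rpl19 and Rps27a were above 0 in 1 library each.

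Of the 70 genes, 2 were listed at 0 in some libraries, Rpl26 in 3 and Rpl30 in 5. Rpl26 was listed at 218 and 229 FPKM (gelatin Std), 0 and 212 (gelatin 2i), 210 and 0 (LN511 Std), and 0 and 228 (LN511 2i). Where it was above 0 it varied little, and 3 of its 4 groups held a 0 beside a value of 210 FPKM or more. Rpl30 was listed at 235 and 270 FPKM (gelatin Std) and at 264 and 0 (gelatin 2i), with 0 in each of the 4 LN511 libraries. Neither was tested, and a listed 0 was not read as absence. In the authors' gene-level table only 35 of the 70 genes have rows. There, 167 of the 280 values that are above 0 by transcript sums are listed at 0, and the other 113 equal the sums within 0.1%. For the genes just outside the rule, Rps27 is at 0 in all 8 libraries and Rpl30, just inside it, is above 1 FPKM in 3.

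Beyond levels, the members shared features of their genes. They lie on 19 chromosomes, 12 of them on chromosome 7. Annotated snoRNA genes, which guide the modification of ribosomal RNA, lie within 26 of the 70 genes (37.1%, 52 snoRNAs), against 2.41% of the 10278 tested genes. RefSeq names 305 pseudogenes after 56 of the 70 genes. How the authors assigned reads shared between a gene and such copies is not given in the sources used here, so the level of these members is uncertain to that extent.

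Paralogs and associated genes outside the symbol rule gave another view of the family. Of 11 such genes tested, none passed between the media on gelatin (against 15.4% of all tested genes), and 3 were higher (27.3%, against 8.58%) and 1 lower (9.09%, against 9.95%) in 2i on LN511. Rpl39l, the testis-enriched paralog of Rpl39, read 21.4 and 26.9 FPKM (gelatin Std), 43.5 and 50.3 (gelatin 2i), 3.59 and 6.46 (LN511 Std), and 54.5 and 71.8 (LN511 2i). LN511 Std was lowest and both 2i groups were above both Std groups. Its log2 difference was 3.44 ± 0.26 for 2i against Std on LN511 (limma adjusted p = 0.000524) and -2.09 ± 0.26 for LN511 against gelatin in Std (limma adjusted p = 0.019). Rpl10l, a paralog of Rpl10, rose by 0.82 on LN511 (limma adjusted p = 0.0312), and Rps27l, a p53-responsive paralog of Rps27, was lower in 2i there by a log2 difference of -0.46 (limma adjusted p = 0.0196).

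Ribosome biogenesis genes that passed between the media were all lower in 2i. Of 37 tested ribosome biogenesis genes, 12 were lower (32.4%, against 7.2% of all tested genes) and none higher (against 8.2%) in 2i on gelatin. On LN511, 16 were lower (43.2%, against 9.95%) and none higher (against 8.58%). The list had median log2 differences of -0.23 and -0.32, against 0.00 and -0.04 over all tested genes. They included Gar1 (log2 -0.68 on gelatin and -0.71 on LN511) and Nop10 (-0.80 and -0.34) of the H/ACA snoRNPs, which modify ribosomal RNA. Of 26 subunits and factors of RNA polymerases I and III, 3 were lower on gelatin (11.5%) and none higher, and 8 were lower (30.8%) and 1 higher (3.85%) on LN511, beside the same shares of all tested genes. The gene that was higher was Ubtf, a factor of RNA polymerase I (log2 2.09 ± 0.41 on LN511, and 0.33 ± 0.41 on gelatin with a limma adjusted p of 0.647). On LN511, Ubtf averaged 9.68 ± 5.44 FPKM in Std and 43.6 ± 20.0 in 2i (mean ± SD, n = 2 each), so its replicates lay far apart. The initiation factor Rrn3 was lower on both (log2 -0.30 and -0.49). None of these passed in the comparisons of coating or in the interaction.

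Of 17 regulators of TOP translation and of ribosomal protein transcription, the same count, 3, was lower on each coating (17.6%, against 7.2% of all tested genes on gelatin and 9.95% on LN511) and none was higher (against 8.2% and 8.58%). They were Mycn, Myc and Larp1. Mycn averaged 174 FPKM in gelatin Std, 35.5 in gelatin 2i, 166 in LN511 Std and 40.4 in LN511 2i, a log2 difference of -2.26 ± 0.08 on gelatin and -2.01 ± 0.08 on LN511 (limma adjusted p = 4.3e-05 and 5.2e-05). Larp1 differed by -0.62 and -0.70. Translation factors and other genes known for TOP messages went both ways, with 1 of 14 higher (7.14%) and 4 lower (28.6%) on gelatin, and 3 higher and 3 lower (21.4% each) on LN511, beside the same shares of all tested genes. Vim, an intermediate filament gene, rose on both coatings (log2 0.63 on gelatin and 0.53 on LN511). Tpt1 (-0.35 and -0.41) and Eef2 (-0.32 and -0.27) fell on both, and Eef1g rose on LN511 (0.29, with 0.05 on gelatin at a limma adjusted p of 0.551). Of 72 mitochondrial ribosomal proteins, 1 was higher (1.39%, against 8.2% of all tested genes) and 3 lower (4.17%, against 7.2%) on gelatin. On LN511, 5 were higher (6.94%, against 8.58%) and 2 lower (2.78%, against 9.95%). Mrps2 was higher on both coatings (log2 0.61 and 0.97).

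Markers of the labelled cell type were present. All 9 embryonic stem cell markers with rows were at 1 FPKM or more in every group, and their sum was 2456 to 2817 FPKM per library. The sum of 7 fibroblast markers was 3.34 to 5.57 FPKM in Std and 0.452 to 0.813 in 2i, with Postn and Lum at 0 in every group. That of 5 trophoblast markers was 7.48 to 26.6 FPKM, with the gelatin 2i libraries highest, and that of 6 primitive endoderm markers was 0.616 to 2.83. Their part in the results was not tested.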

How the data were processed

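RNA-seq was compared in 4 groups of 2 libraries. The authors deposited FPKM for genes and for transcripts. Cufflinks 2.1.1, TopHat2 2.1.1 and the build mm10 are named, per the submitters' processing notes, with roles, annotation and strandedness not given in the sources used here. The gene value was the sum of its RefSeq transcripts' FPKM: 31786 of 32688 RefSeq rows matched a symbol, and 902 unmatched and 21844 assembled rows were left out. No read counts are in the files and depth was not recovered here. All sample columns were used (0 left out). The results of 2 genes are not reported here.

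Genes at 1 FPKM or more in 2 libraries were kept. A gene was set aside where only 1 of 2 replicates was listed at 0 while its partner reached 5 FPKM, or where both were at 0 while a different group averaged at least 5. limma 3.58.1 (R 4.3.3) was fitted to log2(FPKM + 1) of all 10278 genes in 8 libraries (4 residual degrees of freedom, eBayes with trend). Fold changes from log2 values understate changes of low genes. Benjamini-Hochberg adjusted p under 0.05 counted as passed. The script was tested on simulated data.

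The members and lists were chosen with earlier results of these data known. Named genes were those that passed, the 6 highest and 6 lowest means, those with doubtful zeros, the 5 largest differences per comparison and a fixed panel by role; up to 3 passing genes were named from every further list. Alternatives were other pseudocounts, filters, scalings, the gene-level table, 4-library fits, a replicate block and leaving out each library.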

Additional observations from a re-analysis of the deposited data

Results flagged for a closer look

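For Rps28 the interaction of coating and medium was -1.94 on the log2 scale. Rps28 was higher in 2i than in Std on gelatin and lower on LN511, and every library of each pair of groups followed that order. The difference on LN511 did not pass (limma adjusted p = 0.11). The interaction passed in the main fit of all 8 libraries (limma adjusted p = 0.0422). It did not pass when any 1 of them was left out. With a pseudocount of 0.1, no filter on low values, quantile normalization or a replicate block, it did not pass either (limma adjusted p = 0.0515 to 0.116).

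For 2 ribosomal protein genes without a RefSeq transcript row, the authors' gene-level table, which the comparisons did not use, held values far above 0. Rpl36a reached 1443 FPKM, with values of 1242 or more in 6 libraries and 0 in both LN511 2i libraries. Rps25 reached 1433 FPKM, with values of 1270 or more in 5 libraries. Their zeros cannot be read as absence.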

How the results depend on the processing

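The numbers of members that passed moved with the processing. For 2i against Std on gelatin the 3 became 1 with no filter on low values (1.47%, against 9.87% of all tested genes). The count was 5 with quantile normalization (7.35%, against 15.5%) or with only the 4 libraries compared (7.35%, against 9.71%). It was 6 (8.82%) when libraries were scaled to equal summed FPKM over all kept genes (against 14.9%) or over genes other than the members (against 14.7%). It was also 6 by the median ratio (against 15.8%) or centred on the median member (against 15.2%), and this last pair was chosen after seeing the data. On LN511 the 9 (13.2%, against 18.5% of all tested genes) became 14 with quantile normalization (20.6%, against 18.5%). The count was 17 (25%) with equal summed FPKM (against 18.2%) or the median ratio (against 18.7%). It was 16 with equal sums over other genes (23.5%, against 17.9%), and 0 with only 4 libraries (against 9.36%). For LN511 against gelatin in Std the 1 became 2 (2.94%) with quantile normalization (against 2.12% of all tested genes), the median ratio (against 2.02%) or centring (against 2.03%). The count was 3 with equal sums (4.41%, against 1.98%) and 4 with equal sums over other genes (5.88%, against 1.89%). With only 4 libraries it was 0 (against 0.0584%). The interaction's 1 became 0 with a pseudocount of 0.1 (against 0.146% of all tested genes), no filter (against 0.208%) or quantile normalization (against 0.214%). In the authors' gene-level table only 2 members could be tested, and 0 passed in any comparison, against 1.94% to 11.7% of the 2784 genes tested there.

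The median member difference on LN511 was 0.036 with quantile normalization and 0.035 when centred on the median member. LN511 against gelatin in 2i gave 0.011 (quantile), 0.022 (equal sums), 0.028 (equal sums over other genes) and 0.027 (centred), the interaction 0.0497 (quantile), and the gene-level table -0.0998 for the medium on gelatin.

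Leaving out each library in turn gave 1 to 8 members for the medium on gelatin, 2 to 30 on LN511, 0 to 2 for the coating in Std, and 0 to 1 for the coating in 2i and for the interaction. The medians ranged from -0.051 to -0.0096, 0.031 to 0.19, -0.044 to -0.014, -3.4e-05 to 0.19 and 0.047 to 0.23 in that order. Of 73 differences of single members that were 0.2 or more in size on the log2 scale (a limit chosen after seeing the data), 11, in 5 genes, turned direction when 1 library was left out. For Rpl27 they were the coating in Std (0.081 without LN511 Std replicate 1, -1.35 without replicate 2) and the interaction (-0.50 and 0.94). For Rpl31, without LN511 2i replicate 1 and 2 in turn, they were the medium on LN511 (0.33 and -0.78), the coating in 2i (0.21 and -0.89) and the interaction (0.19 and -0.91). Rps19 turned, in the same order, for the medium on LN511 (2.36 and -0.84) and the coating in 2i (0.81 and -2.38), and Rps24 for the medium on LN511 (-1.50 and 0.018). Rpl41 turned for the medium on LN511 (-0.31 without LN511 Std replicate 1, -0.069 without LN511 2i replicate 1, 0.74 without LN511 Std replicate 2), the coating in 2i (-0.17 and 0.86 without gelatin 2i replicate 1 and 2) and the coating in Std (0.79 and -0.26 without LN511 Std replicate 1 and 2).

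The replicate numbers did not pair the libraries: deviations of same-numbered libraries correlated by -0.02 to 0.019 over all tested genes in the 6 pairs of groups, and over the 68 members by 0.19, 0.38, -0.25, -0.15, -0.71 and 0.31, with signs both ways. With a replicate block 1 member passed for the medium on gelatin (1.47%, against 11.9% of all tested genes) and 7 on LN511 (10.3%, against 14.6%). The coating in Std had 1 (1.47%, against 0.778%), the coating in 2i had 0 (against 0%) and the interaction 0 (against 0.00973%).

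Summed over members, gelatin Std, gelatin 2i, LN511 Std and LN511 2i gave 29339, 28444, 20710 and 25550 FPKM in the gene-level table. There only 35 of the 70 members have rows, and 167 of 280 values above 0 by transcript sums are listed at 0. These sums therefore depend on which values are listed at 0. With libraries scaled to equal totals, the members' transcript sums were 253910, 253955, 244994 and 257256 in the same order. With libraries scaled to equal totals over genes other than the members, the members' sums were 340320, 340425, 324502 and 346387. These are rescaled values and not FPKM as deposited. No read counts were given, so counting error was not computed.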
